A study of Mus musculus with 6 samples.

Results

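The 38 genes described here encode enzymes of the lysosome, its membrane proteins and 1 of its transcriptional regulators. They were listed by symbol, matched to the GENCODE vM21 annotation, and found among the 55536 genes counted in each library. All 38 passed the filter on low counts that 15903 genes passed. The libraries were made from stromal cells of mouse quadriceps after surgical muscle loss, in a model that the series calls foreign body fibrosis. All mice were C57Bl/6 and carried tdTomato as a reporter of p16, a product of Cdkn2a that blocks the cell cycle and is widely used to mark senescent cells. The cells were sorted as CD45-CD31-CD29+, and then as tdTomato-positive (p16+, 3 libraries) or tdTomato-negative (p16-, 3 libraries). Both groups thus share strain, reporter, gate and injury, and differ by reporter state. Surgery was at 10 weeks of age, and the protocol names 30 mg of polycaprolactone, a decellularized matrix or 50 uL of saline as the filler, with harvest after 1 or 6 weeks. The filler and harvest time of these libraries, the construct behind the reporter, and whether replicates were separate animals are not given in the sources used here. The p-values therefore measure the spread between these libraries, which may be technical.

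Lysosomes are acidic organelles in which proteins, glycans, glycosaminoglycans and lipids are broken down. Soluble hydrolases reach them from the Golgi, mostly by way of mannose 6-phosphate receptors, a proton pump (the V-ATPase) acidifies them, and heavily glycosylated membrane proteins line them. Fibroblasts also release some of these enzymes, and cathepsin K cleaves fibrillar collagen. A larger lysosomal compartment is a known feature of senescent cells: the beta-galactosidase activity by which they are commonly stained is that of the lysosomal enzyme encoded by Glb1.

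Total counts were 35253406 to 37861713 in p16+ and 36507067 to 39103909 in p16- libraries, and 3 counts corresponded to 0.0737 to 0.0876 CPM (counts scaled to a common library size, with TMM factors). Cdkn2a, the gene behind the sort, had 251, 324 and 265 counts in p16+ and 98, 70 and 82 in p16-. Fibroblast markers were abundant in every library, and of 7, 5 rose (Col1a1, Col1a2, Col3a1, Lum and Pdgfrb) and 0 fell. At the same threshold, an adjusted p of 0.05, 8.69% of all genes tested rose and 8.04% fell. Col3a1, the highest, had 69175 CPM in p16+ and 44919 CPM in p16-. Pdgfra and Dcn did not pass and had values below 0 (log2 fold changes -0.23 and -0.15, adjusted p = 0.102 and 0.245). In bulk RNA, fewer cells of a type and less RNA per cell cannot be told apart.

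Many lysosomal hydrolase genes were modestly higher in p16+ cells, a few were much higher, and none of the 38 was called lower. By edgeR's quasi-likelihood test with adjustment over all genes, 18 of 38 rose, 0 fell and 20 did not pass the threshold of 0.05. Among all 15903 genes, 16.7% were called, 8.69% higher and 8.04% lower. The members are abundant genes, and 37 of them lay above the median level of all genes tested. Above that level, 12.6% of genes were called higher and 11.3% lower. The median log2 fold change of the 38 was 0.24, against -0.01 over all genes, and 30 of the 38 values were positive. CPM did not overlap between groups in 23 members, all higher in p16+, where 16.6% of all genes were higher and 16.5% lower without overlap.

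The size of the change was uneven. Only Ctsc and Acp5 rose more than 2-fold, with log2 fold changes of 1.48 and 1.40, followed by Atp6v0d2 (0.96), Ctsk (0.78) and Lgmn (0.59). The other 13 that rose lay between 0.23 for Grn and 0.43 for Cd63. Of the 18, 13 were called under all 14 alternative settings, and Ctsz, Gaa, Grn, Gpnmb and Sgsh were not. With library sizes alone as the scaling, 14 of the 38 were higher and 0 lower, their median was 0.16, and over all genes 1059 were higher and 1882 lower in place of 1382 and 1278. The 7 fibroblast markers, mostly by 3 collagen genes, took 151152 to 158563 CPM in p16+ and 89133 to 106637 CPM in p16-, and their part in that shift was not tested.

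**Figure D1:**
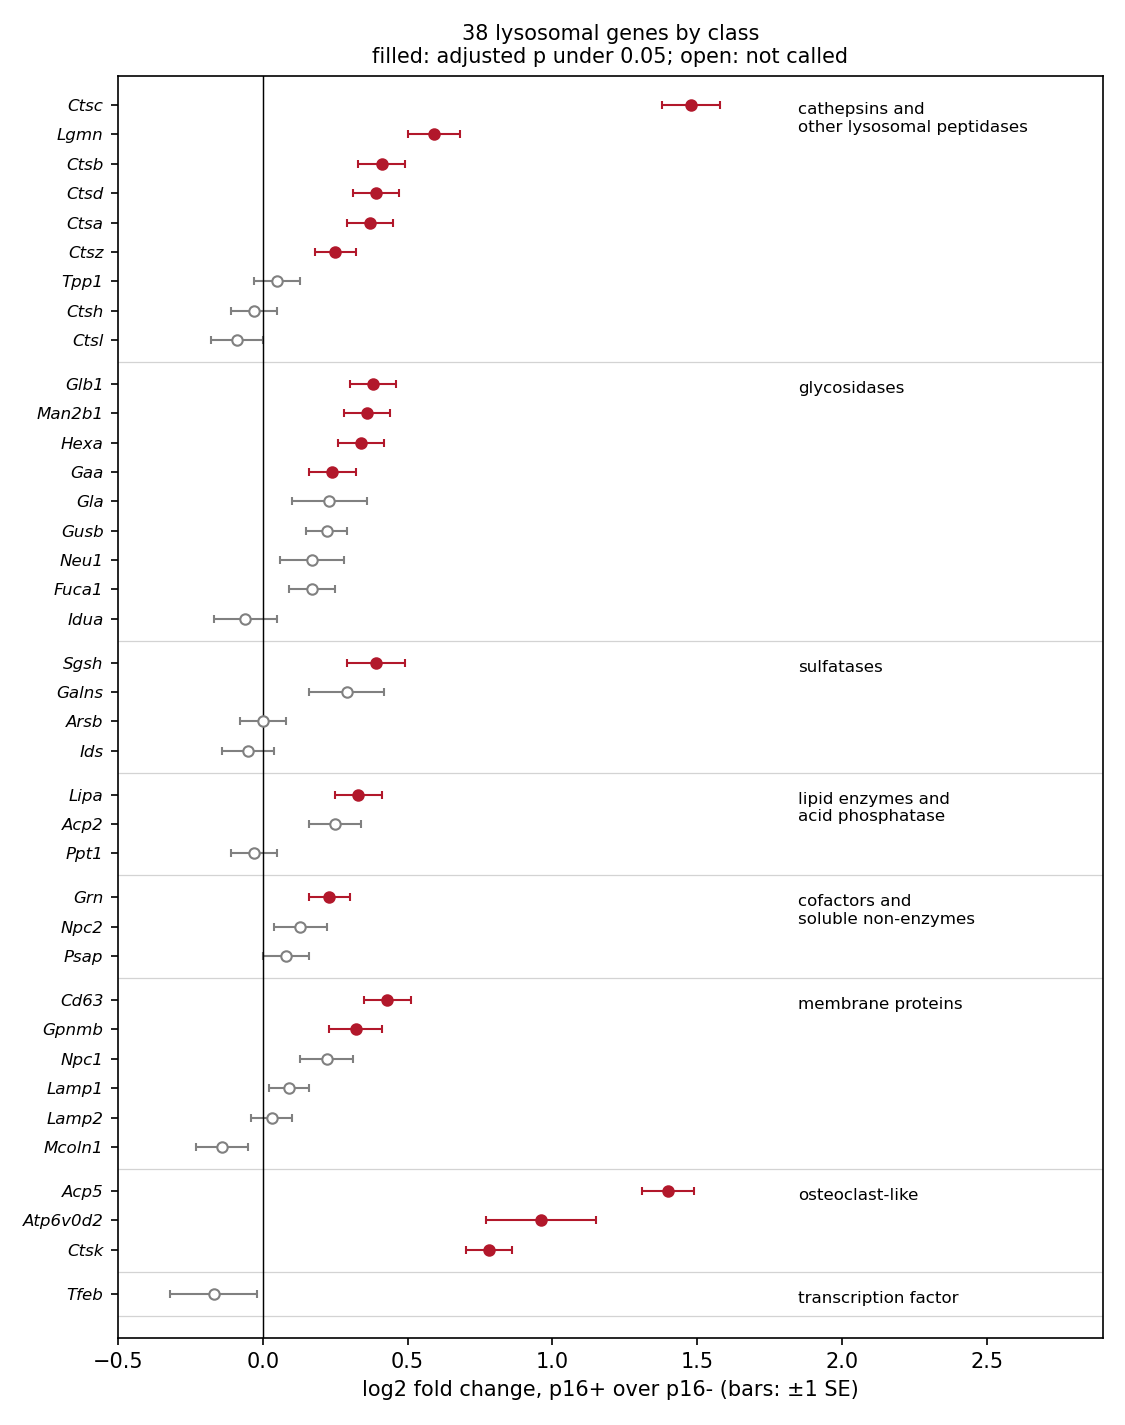
Log2 fold change of each of the 38 genes, p16+ over p16-, by class, with bars of 1 SE from the fit. Filled red points passed an adjusted p of 0.05 and open grey points did not; all filled points lie to the right of 0, and Ctsc, Acp5, Atp6v0d2 and Ctsk stand apart from the rest.

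On the TPM scale, which divides each count by the gene's exonic length before scaling, a few genes made up most of the summed TPM of the 38. That length spans all annotated exons, 1512 bases for Ctsk and 6051 for Ctsb, and may exceed that of the mRNA present. The order of genes and their shares therefore depend on the annotation. By CPM, which is not divided by length, Ctsb (1984 in p16+ and 1496 in p16-) lay above Ctsk (1269 and 738). Averaged over the 6 libraries, Ctsk led at 2609 TPM, ahead of Psap at 2488, Ctsb at 1131 and Lamp1 at 949 TPM, and these 4 genes held 55.1% of the TPM of all 38. Tfeb, at 9.63 TPM, and Atp6v0d2, at 12 TPM, were the lowest. The order at the top differed between groups. In p16+ libraries Ctsk made up 23.1%, 22.5% and 22.7% of the summed TPM of the 38 and Psap 17.8%, 17.5% and 17.6%. In p16- libraries Ctsk made up 17.6%, 16.4% and 15.9% and Psap 19.8%, 21.1% and 21.9%. Together the 38 genes took 1.44%, 1.41% and 1.5% of all TPM in p16+ and 1.15%, 1.16% and 1.15% in p16-, without overlap.

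**Figure D2:**
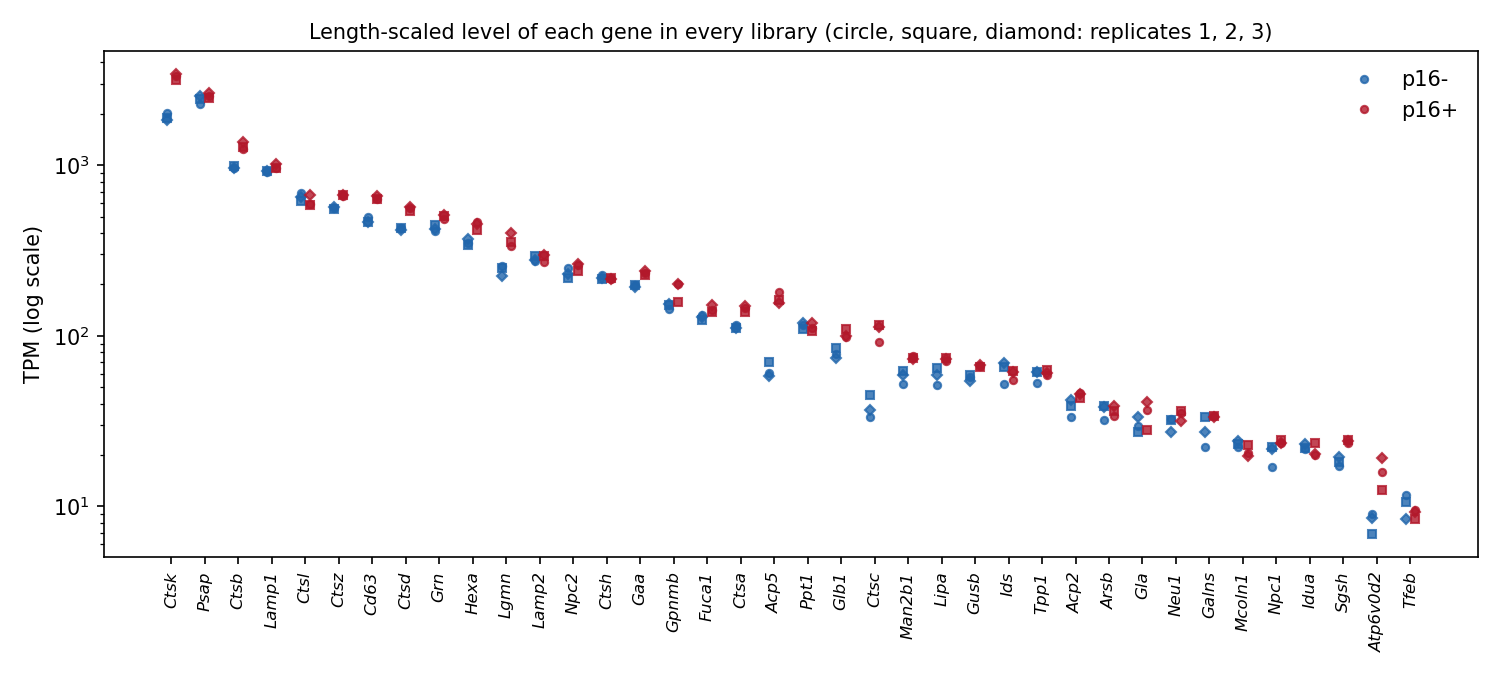
TPM of each gene in every library on a log scale, ordered by the mean over the 6 libraries, with p16- in blue, p16+ in red and symbols for replicates. The red points of Ctsk, Acp5, Ctsc and Atp6v0d2 lie well above the blue ones, while those of Psap, Lamp1, Lamp2 and Ctsh lie among or close to them.

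Transcription of many lysosomal genes is driven by TFEB and its relatives TFE3, MITF and TFEC, which bind an E-box within the CLEAR element of their promoters. Tfeb itself (chromosome 17, 47737030 to 47792419, plus strand, GRCm38) had 13.9, 12 and 13.3 CPM in p16+ and 17.2, 15 and 12 CPM in p16- (log2 fold change -0.17, 95% interval -0.49 to 0.14, adjusted p = 0.493). Its libraries overlapped between groups, and the interval includes no change. Of 14 genes of this family and of the nutrient-sensing machinery at the lysosomal surface that holds TFEB in the cytoplasm, 13 were tested. Among those, 1 (7.69%) rose and 1 fell, where 8.69% of all genes tested rose and 8.04% fell. Mitf, which drives Ctsk and Acp5 in osteoclasts, fell from 56.8 ± 0.899 to 46.2 ± 2.65 CPM (mean ± SD, n = 3 each, as in all such pairs below; log2 fold change -0.30 with an SE of 0.08, adjusted p = 0.0161). Lamtor1, an anchor of the Ragulator complex, rose from 43.9 ± 2.17 to 53.6 ± 4.93 CPM (adjusted p = 0.0359), and other genes cover 18.7% of its exons. These are mRNA levels, and the activity of TFEB, which is set by its phosphorylation and location, was not measured.

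The promoters of the members were read for this E-box, since many lysosomal genes are known targets of these factors. RefSeq promoter windows (GRCm38.p6, 300 bases around each annotated start, of which the last 50 follow it) were at hand for 33 of the 38, in 40 windows. The core CACGTG, which reads the same on both strands, was in at least 1 window of 10 of the 33 genes (30.3%), against 11.2% of the genes of the series that passed the low-count filter and had a window. TCACGTG, the core with the flanking base of the CLEAR element, searched on both strands and always overlapping a core, was in 9 of the 33 (27.3%), against 6.66%. Of the genes that rose, 6 of 16 had TCACGTG (Ctsa, Ctsd, Gaa, Glb1, Lgmn and Sgsh), and of those not called 3 of 17 (Gla, Lamp1 and Mcoln1). Counted per window, 25% of the 40 member windows held the core and 22.5% the flanked form. Of the windows of genes that passed the filter, 9.42% held the core and 5.58% the flanked form. Of all 32851 promoter windows, 7.15% held the core and 3.77% the flanked form. Most matches were close to the start: 11 of the 17 cores began within the 100 bases before it, several of them in Lamp1 and Mcoln1. Positions in the promoters of other genes were not examined, so closeness to the start cannot be read as a trait of the members.

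Windows of 3 members are printed because they span what was found: Glb1 rose and has 1 flanked E-box, which begins 48 bases before the start site; Lamp1 was not called and has 4, in the 61 bases before the start; Ctsk rose most among the 4 members of highest TPM and has none. They lie at chr9:114400828-114401127, chr8:13158911-13159210 and chr3:95498960-95499259, all on the plus strand, and capitals mark the E-box with its flanking base.
Glb1: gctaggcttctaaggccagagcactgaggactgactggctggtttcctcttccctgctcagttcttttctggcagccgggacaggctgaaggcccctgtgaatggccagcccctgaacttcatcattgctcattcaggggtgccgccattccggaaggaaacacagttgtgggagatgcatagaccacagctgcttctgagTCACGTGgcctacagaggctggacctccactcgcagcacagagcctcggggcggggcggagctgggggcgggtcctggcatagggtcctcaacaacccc
Lamp1: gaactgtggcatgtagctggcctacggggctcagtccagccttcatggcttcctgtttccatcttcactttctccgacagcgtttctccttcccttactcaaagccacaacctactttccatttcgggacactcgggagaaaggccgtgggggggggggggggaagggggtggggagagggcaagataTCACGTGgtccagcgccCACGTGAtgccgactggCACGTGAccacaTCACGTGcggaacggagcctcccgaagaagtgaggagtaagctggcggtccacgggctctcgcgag
Ctsk: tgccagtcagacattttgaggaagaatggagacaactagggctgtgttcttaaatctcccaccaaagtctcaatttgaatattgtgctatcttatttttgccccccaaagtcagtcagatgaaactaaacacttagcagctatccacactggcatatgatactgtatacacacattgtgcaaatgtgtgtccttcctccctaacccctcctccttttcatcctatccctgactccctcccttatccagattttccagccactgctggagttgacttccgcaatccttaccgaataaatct

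These 3 were chosen with their values known and show the range of windows, not a relation between E-boxes and fold change. Ctsc and Acp5, like Ctsk, have no core in their windows, and Lgmn has 1 in 1 of its 2 windows. The members not among the 33 are Atp6v0d2, Ctsb, Ctsh, Galns and Npc1. Among V-ATPase genes, of which 1 of 17 rose, 4 of the 12 with a window hold TCACGTG. A match is a run of letters and was not tested as a binding site.

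**Figure D3:**
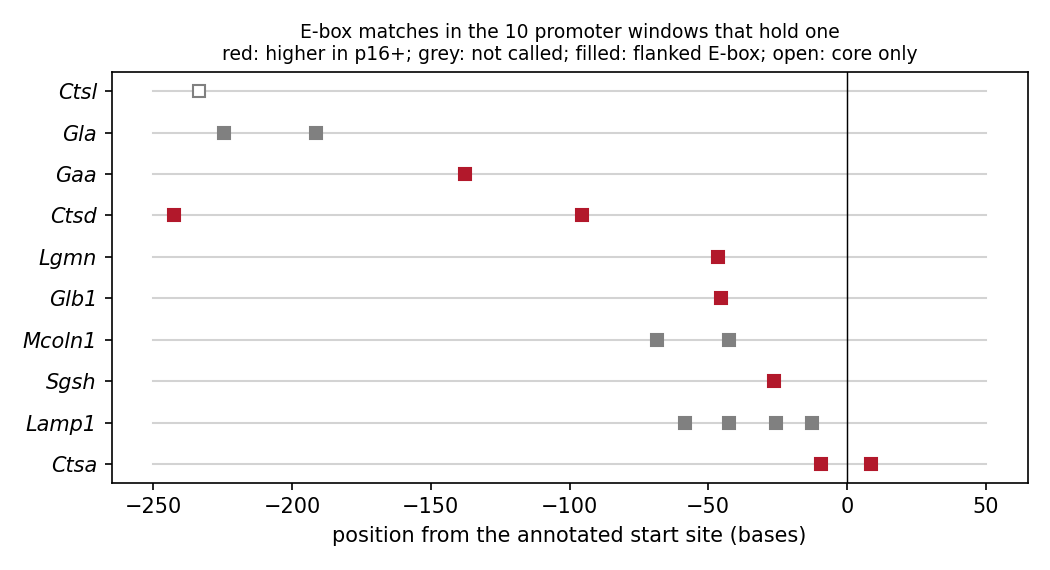
Centre of each E-box match relative to the annotated start site, in bases, for the 10 members with a match; each grey line is 1 window of 300 bases. Red squares are genes that rose in p16+ and grey squares genes not called, and the open square of Ctsl is a core without the flanking base; matches of Lamp1, Mcoln1, Sgsh, Glb1, Lgmn and Ctsa crowd into the stretch next to the start.

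Glycosidases remove sugars from glycoproteins, glycolipids and glycosaminoglycans. Of 9, 4 rose, 0 fell and 5 did not pass, with a median log2 fold change of 0.23. Glb1 (chromosome 9, 114401076 to 114474898, plus strand), the beta-galactosidase of the senescence stain, had 76.3, 82.9 and 75.7 CPM in p16+ and 61.4, 63.4 and 55.9 CPM in p16-. All 3 p16+ libraries were above all 3 p16- libraries, and the change was 1.3-fold (log2 fold change 0.38 with an SE of 0.08, adjusted p = 0.00316). Glb1 kept its call under every alternative setting, with adjusted p from 0.000318 to 0.0284. Man2b1, the lysosomal alpha-mannosidase, had 157, 149 and 148 CPM in p16+ and 109.9, 125 and 119 CPM in p16-, again without overlap (log2 fold change 0.36 with an SE of 0.08, adjusted p = 0.00339). Hexa, the alpha subunit of beta-hexosaminidase, had 240.1, 210.1 and 228 CPM in p16+ and 183, 169 and 184 CPM in p16- (log2 fold change 0.34 with an SE of 0.08, adjusted p = 0.00644), and genes on the opposite strand cover 12.8% of its exons.

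Gaa, which degrades glycogen, had 284 ± 9.85 CPM in p16+ against 239.5 ± 10.4 CPM (log2 fold change 0.24, adjusted p = 0.0356). Its call was lost without p16+ replicate 1, 2 or 3 (adjusted p = 0.104, 0.0722 and 0.141), without p16- replicate 2 or 3 (0.0641 and 0.163) and with library sizes alone (0.146). The glucuronidase gene Gusb did not overlap between groups but missed the threshold (log2 fold change 0.22, 95% interval 0.06 to 0.38, adjusted p = 0.0542). It passed without p16- replicate 1 (adjusted p = 0.0287), with the stricter filter (0.0457), by DESeq2 (0.0453) and with the replicate block (0.0341). Fuca1, Neu1 and Gla had positive values with overlapping libraries (log2 fold changes 0.17, 0.17 and 0.23), and Idua, which cleaves iduronic acid from heparan and dermatan sulfate, lay at -0.06.

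Lysosomal peptidases, most of them cathepsins, degrade proteins. Of 9 genes outside the osteoclast-like group, 6 rose, 0 fell and 3 did not pass, with a median of 0.37. Ctsc (chromosome 7, 88278085 to 88310888, plus strand) encodes dipeptidyl peptidase 1, which activates serine proteases of leukocyte granules. It had 138, 170.1 and 166 CPM in p16+ and 50.9, 65.4 and 53.7 CPM in p16-, so that the lowest p16+ library was more than 2-fold above the highest p16- library (log2 fold change 1.48 with an SE of 0.10, adjusted p = 1.77e-07). Lgmn (chromosome 12, 102394084 to 102439813, minus strand) encodes legumain, an asparaginyl endopeptidase that processes cathepsins. It had 203, 208 and 233 CPM in p16+ and 155, 144 and 129.7 CPM in p16-, also without overlap (log2 fold change 0.59 with an SE of 0.09, adjusted p = 0.000167). Ctsb, the most abundant cysteine cathepsin here after Ctsk on the TPM scale, had 1936, 1937 and 2079 CPM in p16+ and 1527, 1499 and 1462 CPM in p16- (log2 fold change 0.41 with an SE of 0.08, adjusted p = 0.00116), and genes on the opposite strand cover 12.8% of its exons.

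The aspartic protease gene Ctsd and the carboxypeptidase gene Ctsa rose by similar amounts. Ctsd had 333 ± 12.7 CPM in p16+ against 253 ± 10.8 CPM (log2 fold change 0.39, adjusted p = 0.00154 by edgeR), and other genes of the same strand cover 34.4% of its exons. Ctsa, which also protects beta-galactosidase and neuraminidase in a complex with them, had 174 ± 8.21 CPM in p16+ against 135 ± 6.24 CPM (log2 fold change 0.37, adjusted p = 0.00291), and opposite-strand genes cover 17.4% of its exons. The 3 genes of that complex are Ctsa, Glb1 and Neu1, and of these Neu1 alone did not pass (log2 fold change 0.17, 95% interval -0.06 to 0.40, adjusted p = 0.334).

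Ctsz, a carboxypeptidase, had 244 ± 0.409 CPM in p16+ against 206 ± 7.11 CPM (log2 fold change 0.25, adjusted p = 0.0281). That call was lost without p16+ replicate 1, 2 or 3 (adjusted p = 0.0796, 0.0993 and 0.0929), without p16- replicate 2 or 3 (0.0698 and 0.105) and with library sizes alone (0.123). Not every cathepsin was higher. Ctsl, a broad endopeptidase, had 993, 952 and 1099.7 CPM in p16+ and 1177, 1003 and 1055 CPM in p16- (log2 fold change -0.09, 95% interval -0.27 to 0.10, adjusted p = 0.568). Its groups overlapped, and opposite-strand genes cover 26.8% of its exons. Ctsh, an aminopeptidase, had 248, 248 and 244 CPM in p16+ and 268, 243 and 245 CPM in p16- (log2 fold change -0.03, 95% interval -0.19 to 0.13, adjusted p = 0.831). Both intervals exclude the 1.33-fold rise of Ctsb (a log2 fold change of 0.41); the difference between the genes was not tested. Tpp1, a tripeptidyl peptidase, lay at 0.05 (adjusted p = 0.72).

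The 3 genes best known from osteoclasts, the bone-resorbing cells, all rose. Ctsk (chromosome 3, 95499256 to 95509362, plus strand), which encodes cathepsin K, is also expressed by activated fibroblasts. It had 1297, 1209 and 1299.7 CPM in p16+ and 805, 716 and 694 CPM in p16-, with all 3 p16+ libraries far above the p16- ones (log2 fold change 0.78 with an SE of 0.08, adjusted p = 6.06e-06). Acp5 (chromosome 9, 22126727 to 22135711, minus strand), tartrate-resistant acid phosphatase, had 94.4, 82.8 and 79.6 CPM in p16+ and 32.3, 35.5 and 29.5 CPM in p16-, which was 2.64-fold without overlap (log2 fold change 1.40 with an SE of 0.09, adjusted p = 1.59e-07). Atp6v0d2 (chromosome 4, 19876841 to 19922605, minus strand), a V-ATPase subunit isoform enriched in osteoclasts and macrophages, was scarce, at 11.2, 8.55 and 13.1 CPM in p16+ and 6.44, 4.67 and 5.83 CPM in p16-. It too did not overlap (log2 fold change 0.96 with an SE of 0.19, adjusted p = 0.00232), but its SE was the widest of the 38. All 3 kept their calls under all 14 alternative settings.

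Genes that define osteoclasts more narrowly were scarce, with means below 1 CPM for 4 of them. Ocstamp and Dcstamp, needed for fusion of their precursors, had 0.164 and 0.465 CPM in p16+ and 0.182 and 0.647 CPM in p16-. The receptor genes Oscar and Tnfrsf11a (RANK) had 0.0183 and 0.828 CPM in p16+ and 0.133 and 0.603 CPM in p16-. Of the 8 osteoclast markers, 6 were tested and 1 (16.7%) rose, where 8.69% of all genes tested were called higher. It was the gelatinase gene Mmp9, from 17.1 ± 1.99 to 32.2 ± 3.24 CPM (adjusted p = 4.46e-05). Calcr had 2.1 CPM in p16+ and 1.68 CPM in p16- and did not pass. The most abundant markers of this list, Itgb3 and Nfatc1, are expressed in other cells as well and did not pass (adjusted p = 0.0847 and 0.0557). Itgb3 had 74.3 CPM in p16+ against 89.1 CPM in p16-, and Nfatc1 57.3 against 47.4 CPM.

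**Figure D4:**
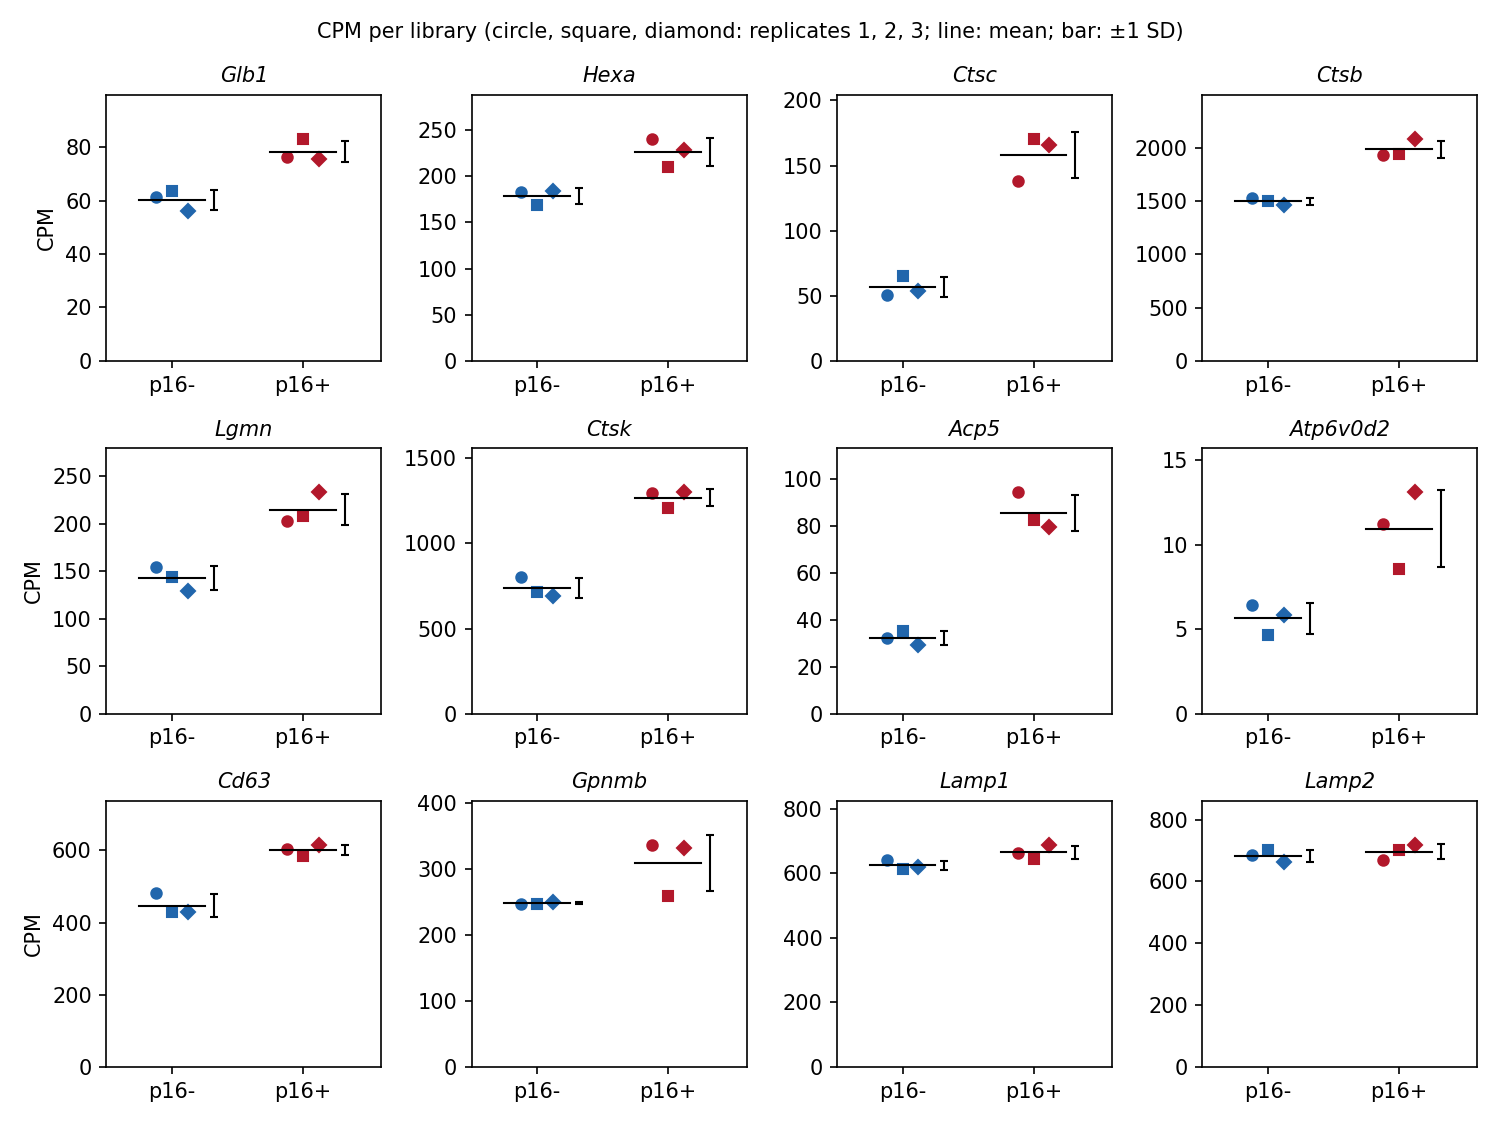
CPM of 12 members in each library, with the group mean as a line and 1 SD as a bar; every axis starts at 0. The 3 red p16+ points lie above the 3 blue p16- points in all panels but that of Lamp2, with the widest gaps for Ctsc and Acp5 and a narrow one for Lamp1. The panels are a selection in which all genes but Lamp1 and Lamp2 were called higher. Such separation was found in 23 of the 38 members and, higher in p16+, in 16.6% of all genes tested.

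Of 4 sulfatases, which remove sulfate from glycosaminoglycans, 1 rose, 0 fell and 3 did not pass. Sgsh, the heparan N-sulfatase, had 26.6, 27.2 and 26.9 CPM in p16+ and 19.9, 20.2 and 21.6 CPM in p16- (log2 fold change 0.39 with an SE of 0.10, adjusted p = 0.0134). Its call was lost by a small margin without p16+ replicate 2 (adjusted p = 0.0502), and opposite-strand genes cover 21.6% of its exons. Galns had 23.1, 22.6 and 22.5 CPM in p16+ and 15.6, 22.1 and 18.1 CPM in p16- (log2 fold change 0.29, 95% interval 0.02 to 0.56, adjusted p = 0.148) and passed only without p16- replicate 2 (adjusted p = 0.0298), its highest p16- library. Ids had 72.6, 80.1 and 79.2 CPM in p16+ and 69.5, 83.1 and 88.2 CPM in p16- (log2 fold change -0.05, 95% interval -0.25 to 0.14, adjusted p = 0.753), with overlapping groups. Arsb, at -0.00, had 55.7 ± 3.43 CPM in p16+ against 55.8 ± 4.09 CPM, and opposite-strand genes cover 39.9% of its exons.

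Among enzymes of lipids and phosphate esters, Lipa, the acid lipase that frees cholesterol and fatty acids, had 125, 126 and 126 CPM in p16+ and 91.1, 109.6 and 99.6 CPM in p16- without overlap (log2 fold change 0.33 with an SE of 0.08, adjusted p = 0.00978). Acp2, lysosomal acid phosphatase, had 61.5, 56.6 and 59.9 CPM in p16+ and 45.7, 50.1 and 54.3 CPM in p16- (log2 fold change 0.25, 95% interval 0.07 to 0.43, adjusted p = 0.0604), and opposite-strand genes cover 12.6% of its exons. It did not overlap but missed the threshold and passed with the stricter filter (adjusted p = 0.0475) and with the replicate block (0.0362). Ppt1, a palmitoyl-protein thioesterase, had 106, 99.1 and 110.5 CPM in p16+ and 112, 101 and 109.9 CPM in p16-, with overlapping groups (log2 fold change -0.03, 95% interval -0.20 to 0.13, adjusted p = 0.832).

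Of the soluble proteins that are not enzymes, Grn, the progranulin gene, had 434, 443 and 446 CPM in p16+ and 377, 384 and 366 CPM in p16- (log2 fold change 0.23 with an SE of 0.07, adjusted p = 0.0399). The groups did not overlap, but the call was lost without p16+ replicate 1, 2 or 3 (adjusted p = 0.0827, 0.137 and 0.137), without p16- replicate 3 (0.16), without the filter (0.0526) and with library sizes alone (0.162). Psap, the precursor of the saposins that activate sphingolipid hydrolases, had 1815, 1707 and 1835 CPM in p16+ and 1649, 1666 and 1739 CPM in p16-. Its 1.06-fold difference did not pass (log2 fold change 0.08, 95% interval -0.08 to 0.24, adjusted p = 0.524). Npc2, which carries cholesterol within the lysosome, had 363, 327 and 363 CPM in p16+ and 354, 296 and 313 CPM in p16- (log2 fold change 0.13, 95% interval -0.05 to 0.31, adjusted p = 0.362).

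Membrane proteins were split. The genes of the main structural glycoproteins of the lysosomal membrane did not pass: Lamp1 (chromosome 8, 13159161 to 13175338, plus strand) had 662, 646 and 687 CPM in p16+ and 641, 614 and 620.4 CPM in p16- (log2 fold change 0.09, 95% interval -0.07 to 0.25, adjusted p = 0.485), and Lamp2 (chromosome X, 38401357 to 38456454, minus strand) had 669, 702 and 717 CPM in p16+ and 685, 701 and 662 CPM in p16- (log2 fold change 0.03, 95% interval -0.13 to 0.19, adjusted p = 0.86). Lamp1 did not overlap by a margin of 5 CPM and Lamp2 overlapped. The upper end of either interval is below the log2 fold change of Glb1, 0.38. The 95% interval of Glb1, 0.21 to 0.55, overlaps that of Lamp1. Whether the change of Glb1 differs from those of Lamp1 and Lamp2 was not tested. Cd63 (chromosome 10, 128900989 to 128912822, plus strand), a tetraspanin of late endosomes and exosomes, differed from both in its call, at 604, 585 and 614 CPM in p16+ and 483, 428 and 429 CPM in p16- (log2 fold change 0.43 with an SE of 0.08, adjusted p = 0.00108). Whether its change differs from those of Lamp1 and Lamp2 was not tested.

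Gpnmb, a glycoprotein of lysosomes and melanosomes that macrophages and osteoclasts also make, had 336, 259.7 and 332 CPM in p16+ and 247, 247 and 250.0 CPM in p16- (log2 fold change 0.32 with an SE of 0.09, adjusted p = 0.0285). p16+ replicate 2 was close to the p16- libraries. The call was lost without p16+ replicate 1 or 3 (adjusted p = 0.139 and 0.155), without p16- replicate 2 or 3 (0.0527 and 0.0867) and with library sizes alone (0.0874). Of the pigment cell markers, Tyr, Dct and Tyrp1 had at most 0.129 CPM in either group, and Mlana had 8.91 and 5.09 CPM (adjusted p = 0.137). Npc1, the cholesterol transporter that works with Npc2, had 68.4, 69.6 and 66.9 CPM in p16+ and 50.5, 63.3 and 61.5 CPM in p16- (log2 fold change 0.22, 95% interval 0.03 to 0.42, adjusted p = 0.104) and passed only with the replicate block (adjusted p = 0.0495). Mcoln1, the calcium channel of the lysosomal membrane, lay at -0.14 (adjusted p = 0.347).

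Further lists of genes of the same system were read from the same fit. Of 22 tested hydrolases and activators that are not among the 38, 9 (40.9%) rose, 1 fell and 12 did not pass, with a median of 0.22. For comparison, 8.69% of all genes tested and 12.6% of those above the median level were called higher. Naglu, which acts on heparan sulfate, rose from 66 ± 3.56 to 92 ± 4.53 CPM (adjusted p = 0.000349). Ctso, a cysteine cathepsin gene, fell from 87.9 ± 6.51 to 67.4 ± 3.24 CPM (adjusted p = 0.00303), the only peptidase of either list to fall.

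Of 18 further membrane proteins, 2 rose and 0 fell, with a median of 0.02. They were Laptm5, which is also a leukocyte marker, from 6.64 to 12.1 CPM, and Laptm4b, from 32.3 to 41.8 CPM (adjusted p = 0.000995 and 0.0133). Of 17 V-ATPase genes, 1 rose and 0 fell, with a median of 0.04 and values from -0.20 to 0.33. The one that rose was Atp6v0a2, a subunit isoform known from the Golgi, from 49.8 ± 1.86 to 62.6 ± 3.42 CPM (adjusted p = 0.00808). Atp6v0d1, the widely expressed counterpart of Atp6v0d2 and named after its values were seen, had 205 TPM on average, against 12 TPM for Atp6v0d2, and did not pass (log2 fold change -0.05, 95% interval -0.22 to 0.13, adjusted p = 0.767). The shares called higher were 11.1% of the membrane proteins and 5.88% of the V-ATPase genes, neither above the 12.6% of genes over the median level.

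In the route that sorts hydrolases to the lysosome, 2 of 10 genes (20%) rose and 0 fell. Called higher were 8.69% of all genes tested and 12.6% of those above the median level. Gnptab, whose enzyme adds the mannose 6-phosphate tag, rose from 57.7 ± 5.83 to 74.7 ± 6.49 CPM, and Igf2r, the larger receptor of the tag, from 281 ± 42.9 to 356 ± 22.8 CPM (adjusted p = 0.0102 and 0.0302). The smaller receptor gene M6pr, named after its value was seen, lay at -0.07 (adjusted p = 0.618). Of 14 autophagy genes, 1 (7.14%) rose and 0 fell, with a median of 0.03, and that share is below the 8.69% of all genes. Wipi1, which helps to form autophagosomes, rose from 96.7 ± 13.4 to 129.6 ± 9.42 CPM (adjusted p = 0.00636).

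Genes of protease inhibitors, cystatins and serpins, went in both directions, with 2 of 5 tested (40%) higher and 1, a serpin gene, lower. The shares over all genes tested were 8.69% higher and 8.04% lower. Serpinb6a, an intracellular serpin, fell from 735 ± 69.2 to 467 ± 32.9 CPM (adjusted p = 6.51e-05), and other genes cover 29.3% of its exons, and its relative Serpinb6b rose from 11.3 to 19.5 CPM (adjusted p = 0.00123). Cstb, the gene of the cytosolic inhibitor cystatin B and named after its value was seen, rose from 65.6 to 83.4 CPM (adjusted p = 0.00885). Cst3, the secreted cystatin C gene, also named after its value was seen, did not pass (log2 fold change 0.11, 95% interval -0.11 to 0.33, adjusted p = 0.554).

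**Figure D5:**
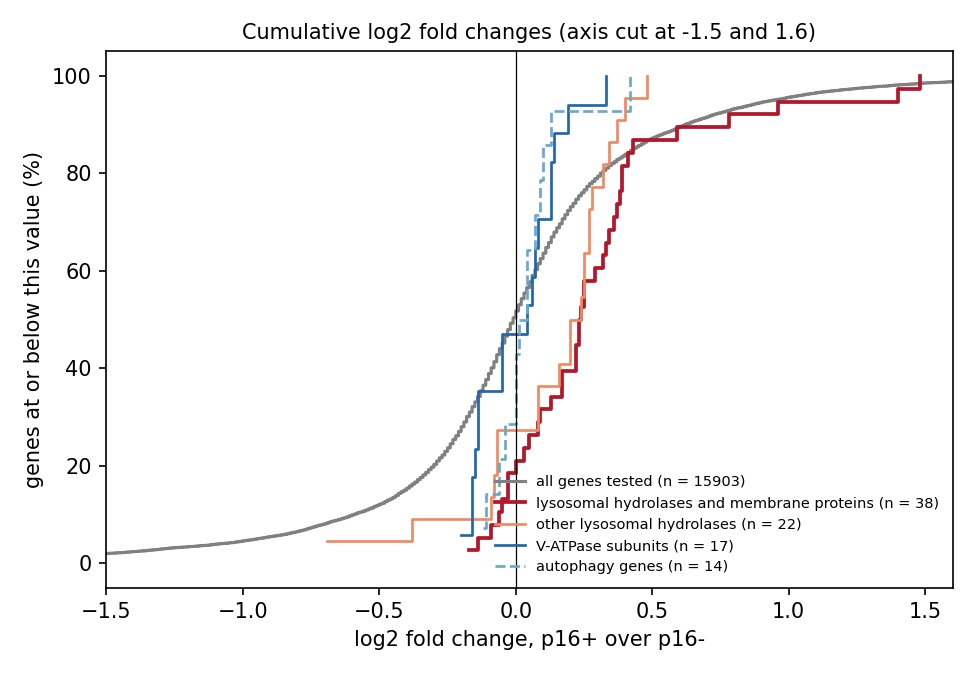
Cumulative share of genes, in percent, at or below each log2 fold change (p16+ over p16-) for all genes tested, the 38 members and 3 further lists. The curves of the members and of the other hydrolases lie to the right of the curve of all genes between 0 and 0.4, while those of V-ATPase and autophagy genes cross 50% between 0 and 0.1.

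Several of these genes are strongly expressed by macrophages, and leukocyte markers were also higher in p16+ libraries although the gate was against CD45. Of 16 such markers 15 were tested, and 8 (53.3%) rose, 0 fell and 7 did not pass, where 8.69% of all genes were called higher. All 15 log2 fold changes were positive, with a median of 0.59. The 8 included Mrc1 (1.95-fold), C1qc (1.84-fold), C1qa (1.67-fold) and C1qb (1.54-fold), named after their values were seen. The summed CPM of the list was 386, 397 and 337 in p16+ and 272, 238 and 271 in p16-. Among them, Lyz2 had 168 ± 8.41 CPM in p16+ against 124 ± 12 CPM, Ctss 37.1 ± 3.24 CPM in p16+ against 28 ± 4.72 CPM and Csf1r 28.2 ± 3.39 CPM in p16+ against 12.5 ± 3.28 CPM (adjusted p = 0.00183, 0.0313 and 7.32e-05), and opposite-strand genes cover 15.1% of the exons of Csf1r. The macrophage lysosomal gene Cd68 did not pass (15.8 ± 2.15 CPM in p16+ against 15.6 ± 0.949 CPM, adjusted p = 0.938), nor did Ptprc, which encodes CD45 (7.77 ± 2.22 CPM in p16+ against 4.89 ± 0.929 CPM, adjusted p = 0.0602).

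The summed CPM of the 38 members was 12283, 11869 and 12683 in p16+ and 10534, 10112 and 10116 in p16-. Within p16+, replicate 3 had the highest sum of members and the lowest sum of leukocyte markers, and replicate 2 the reverse. Within p16-, replicate 1 was the highest and replicate 2 the lowest in both sums. The part of leukocyte RNA in the change of the members was not tested. Of 5 endothelial markers, 2 rose and 1 fell. Pecam1, which encodes the CD31 that the gate was set against, rose from 3.34 ± 0.778 to 6.73 ± 1.58 CPM (adjusted p = 0.00871), and Emcn from 2.63 ± 0.577 to 5.63 ± 1.16 CPM (adjusted p = 0.00683). Tek, the most abundant of the list, fell from 168 ± 13.8 to 49.2 ± 7.79 CPM (adjusted p = 5.24e-08). Cdh5 and Kdr did not pass (log2 fold changes 0.99 and -0.16). Of 4 glial genes 3 fell and 0 rose, with summed CPM of 24.4 to 33.2 in p16+ against 45.7 to 82.4 in p16-. Of 5 satellite cell and muscle genes 1 rose, Pax7, and 0 fell, with sums of 16.4 to 28.0 against 14.2 to 16.2 CPM. Beside these counts, 8.69% of all genes tested were called higher and 8.04% lower. The part of these cells in the change of the members was not tested.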

How the data were processed

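Bulk RNA-seq of 6 libraries, 3 p16+ and 3 p16-, was analysed, grouped by the titles of the labels. The deposited values are whole-number counts of fragments per gene, which the authors made with featureCounts 1.6.0 on exons of GENCODE vM21 without a strand option, per the file headers. STAR 2.7.3a and GRCm38.p6 are named in the submitters' processing notes. Genes were filtered with filterByExpr and tested with edgeR 4.0.16 in R 4.3.3 (TMM factors, glmQLFit with robust estimation, glmQLFTest, group alone), with Benjamini-Hochberg adjustment over 15903 genes. The SE is the absolute log2 fold change divided by the square root of F, and intervals use it with the fit's degrees of freedom. The fit was also run on simulated data in which the changes were larger than most of those called among the members. That run does not measure how well small changes are found. CPM used TMM-scaled library sizes, and TPM all 55536 genes. Without strand, fragments in exons that overlap another gene cannot be assigned to 1 of them, so exonic overlap above 10% is given. The 38 members, their classes, the further lists and the marker lists were chosen with earlier results of these data known. Named in full were Glb1, Lamp1, Lamp2, Cd63, Tfeb, the osteoclast-like genes and the 3 members of smallest p per class, and from further lists the 2 of smallest p that passed. Alternatives were RLE and upper-quartile factors, library sizes alone, no filter, a stricter filter (CPM of at least 1 in 3 libraries), DESeq2 1.42.0, limma-voom (limma 3.58.1), a replicate block, and leaving out each library.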

Additional observations from a re-analysis of the deposited data

How the results depend on the processing

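Over the 14 alternatives, between 14 and 21 of the 38 members were higher and 0 lower. Of the 18 that rose, 13 kept their call under all 14, and the exceptions were Ctsz, Gaa, Sgsh, Grn and Gpnmb. With 1 library left out, 14 to 19 members were called higher, and over all genes 977 to 1333 were higher and 910 to 1234 lower. The sign changed only in members with values near 0 that were not called: Arsb was at 0.00 with RLE factors and by DESeq2 and at 0.01 to 0.04 without p16+ replicate 1 or 2 or p16- replicate 2 or 3 (0.03, 0.01, 0.04 and 0.03; without p16- replicate 1 it was at -0.06), Ctsh at 0.02 without p16- replicate 1 (lowest with 1 library left out, -0.06), Ids at 0.02 without p16- replicate 3 (lowest -0.15), Ppt1 at 0.01 without p16+ replicate 2 (lowest -0.08), and with library sizes alone Tpp1 was at -0.02 and Lamp2 at -0.05.

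The groups share replicate numbers, but nothing in the labels says that a number pairs libraries, and deviations from the group means correlated at 0.0284, 0.0821 and -0.0046 for numbers 1, 2 and 3. With the replicate block 21 members were higher (Gusb, Acp2 and Npc1 in addition), and over all genes 1605 were higher and 1509 lower. Not every library correlated best with its own number. Every member lay above the floor of 3 counts in every library, and SEs of 0.07 to 0.19 with 3 libraries per group limit what could be called.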
